A study of Gossypium hirsutum with 24 samples.

Results

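Of 23977 cotton probe sets, 82 gave clearly higher signal in flower buds without their anthers than in anthers, young leaf and seedling. A probe set is the group of short probes that reports 1 transcript, or a few related ones, on an Affymetrix array. The 82 were chosen from the deposited log2 values, with the median of the 3 arrays standing for each group. For a member, the lowest of the 3 flower parts medians lay at least 2 log2 units above the highest of the 3 anther medians, the leaf median and the seedling median. The highest and lowest anther medians also had to lie less than 1 log2 unit apart. The difference between flower parts and the other tissues was therefore fixed by the choice and is described here without a test.

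The series measured RNA of upland cotton, Gossypium hirsutum, on 24 Affymetrix Cotton Genome arrays in 8 groups of 3. Buds of 5, 7 and 8 mm without their anthers, called flower parts below, made up 3 groups, and the anthers dissected from buds of the same sizes made up 3 more. Young leaf came from plants 1 month old, and seedlings were collected 5 days after germination. The series text ties bud sizes to stages before, during and after meiosis, but the labels do not state which size is which stage, so sizes are used here. No genotype, cultivar or treatment is named for any group. The replicates are called biological without a statement of the plants they came from, so p-values measure the spread between these arrays.

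A cotton bud without its anthers still holds sepals, petals, the filaments that carried the anthers and the pistil. The pistil encloses the ovules, whose surface cells later grow into the cotton fibres, while petals make pigments. Anthers in contrast form pollen, and their inner layer, the tapetum, feeds the developing pollen grains. The samples were whole tissues, so more cells of a type and more RNA per cell cannot be told apart in any difference given here.

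Only 5 of the 82 members had a single locus in the platform annotation: LOC107888194, LOC107939902, LOC107914543, LOC107898728 and LOC107929867, all listed as protein-coding. The tables give no product names, so the other 77 are named by their Affymetrix IDs and no function is given to any member. A single locus was listed for 6.10% of members, against 3.59% of the 17666 tested probe sets. For the same reason, the tissue labels could not be checked against named marker genes.

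Some arrays stood apart from their own groups. A probe set was counted as low on an array where it lay at least 1 log2 unit below both other arrays of the group. By this count 5 mm flower parts replicate 2 was low for 6.43% of the tested probe sets, 7 mm flower parts replicate 3 for 9.11% and 8 mm flower parts replicate 6 for 3.54%. The share of probe sets above background was between 64.5% and 65.3% on all 9 flower parts arrays. Background is the level of 69 control probe sets to which no target was added, 2.23 on the log2 scale at their 95th percentile. Overlap counts, median differences and numbers of called members are given with and without these arrays.

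Across the 82 members, the lowest flower parts median ranged between 4.55 and 12.91, with a median of 7.52. The highest median among anthers, leaf and seedling ranged between 2.16 and 10.74, with a median of 3.88. The margin, the difference between these values, had a median of 2.75 and reached 6.57. It was at least 3 for 35 members, at least 4 for 18 and at least 5 for 7. The other tissue with the highest median was anther for 44 members (5 mm for 23, 7 mm for 10 and 8 mm for 11), leaf for 19 and seedling for 19.

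Levels outside flower parts differed widely among members. The highest other median was under 3 for 29 members and at least 5 for 26, of which 15 were at 7 or more. In all, 44 members lay above background on all 15 arrays of anther, leaf and seedling. Background is only 0.075 log2 units above the lowest value, so this does not show that each was detected in those tissues. GhiAffx.20670.1.S1_at, for example, read the same value, 2.91, on every array of 7 and 8 mm anthers. In 3 members none of the 15 arrays exceeded background: Ghi.363.1.S1_at, LOC107898728 (Ghi.10360.1.S1_a_at) and Ghi.6674.1.A1_s_at. For such members the margin measures only the distance to the lower limit of the values.

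Ghi.287.1.S1_at had the largest margin, 6.57. Its log2 values were 10.61, 9.98 and 9.64 in 5 mm flower parts, 9.20, 9.60 and 9.60 at 7 mm, then 9.17, 9.12 and 9.05 at 8 mm. The 9 anther arrays lay between 2.16 and 2.56, the leaf arrays between 2.16 and 2.26, and all 3 seedling arrays at 2.16. The lowest flower parts array thus lay 6.50 log2 units above the highest other array, the widest such gap among the 82 members.

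GhiAffx.5861.1.S1_at, with a margin of 5.80, had log2 values of 9.79, 8.66 and 9.07 in 5 mm, 9.17, 9.0 and 9.49 in 7 mm, and 9.28, 9.18 and 9.69 in 8 mm flower parts. Its 15 other arrays lay between 2.16 and 3.63. GhiAffx.24718.1.S1_at, with a margin of 5.65, had 8.98, 8.28 and 8.36 in 5 mm, 8.63, 8.25 and 8.76 in 7 mm, and 8.69, 8.82 and 9.02 in 8 mm flower parts. Its other arrays lay between 2.16 and 3.30. In both members the flower parts arrays stayed close together and did not overlap with any other tissue.

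GhiAffx.2014.1.S1_s_at, with a margin of 5.76, had log2 values of 5.12, 8.86 and 8.44 in 5 mm, 8.71, 9.10 and 8.48 in 7 mm, and 8.30, 8.17 and 8.17 in 8 mm flower parts. Anther arrays lay between 2.16 and 2.66 and seedling arrays between 2.16 and 2.46, but leaf read 2.35, 2.26 and 4.88. The low flower parts array (5 mm replicate 2) still lay just above the high leaf array (replicate 4). GhiAffx.59715.1.S1_at, with a margin of 5.33, also varied: 7.36, 9.52 and 11.01 in 5 mm, 10.01, 10.15 and 8.35 in 7 mm, and 9.72, 9.63 and 10.29 in 8 mm flower parts. Its anther arrays spread between 2.56 and 5.52, its leaf arrays between 2.19 and 3.47, and its seedling arrays between 2.17 and 2.19.

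Among members with a locus, LOC107888194 (Ghi.8163.1.S1_at) had the largest margin, 5.29. Its flower parts values were 8.17, 8.24 and 7.83 at 5 mm, 8.55, 8.65 and 8.22 at 7 mm, then 9.07, 9.11 and 9.06 at 8 mm, against 2.16 to 3.18 on all other arrays. LOC107914543 (Ghi.2039.1.S1_x_at), with a margin of 4.14, had 6.72, 5.30 and 6.65 at 5 mm, 6.41, 6.30 and 7.05 at 7 mm, then 6.79, 6.66 and 7.04 at 8 mm, against 2.16 to 2.31 elsewhere. LOC107898728 (Ghi.10360.1.S1_a_at), with a margin of 3.60, had 6.11, 6.05 and 6.47 at 5 mm, 5.89, 6.31 and 6.10 at 7 mm, then 5.66, 5.79 and 5.89 at 8 mm. Its other arrays were all between 2.16 and 2.19. None of these 3 loci overlapped between flower parts and the other tissues.

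LOC107939902 (Ghi.8161.1.S1_s_at), with a margin of 4.17, did overlap. Flower parts gave 4.33, 9.16 and 10.24 at 5 mm, 8.85, 8.84 and 8.24 at 7 mm, then 8.97, 9.02 and 8.26 at 8 mm. Anthers gave 6.55, 3.26 and 3.68 at 5 mm, 3.77, 3.70 and 6.05 at 7 mm, then 3.23, 3.39 and 3.60 at 8 mm, leaf 3.76, 4.11 and 5.08, and seedling 4.67, 4.77 and 4.38. A single low flower parts array, 5 mm replicate 2, lay below 1 array of 5 mm anthers, 1 of 7 mm anthers, 1 of leaf and all 3 of seedling. LOC107929867 (GhiAffx.7927.1.S1_at), with a margin of 2.28, was measured in every tissue, with 8.54 to 10.47 in flower parts against 4.43 to 6.22 in anthers, 6.13 to 7.26 in leaf and 7.10 to 7.20 in seedling.

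**Figure D1:**
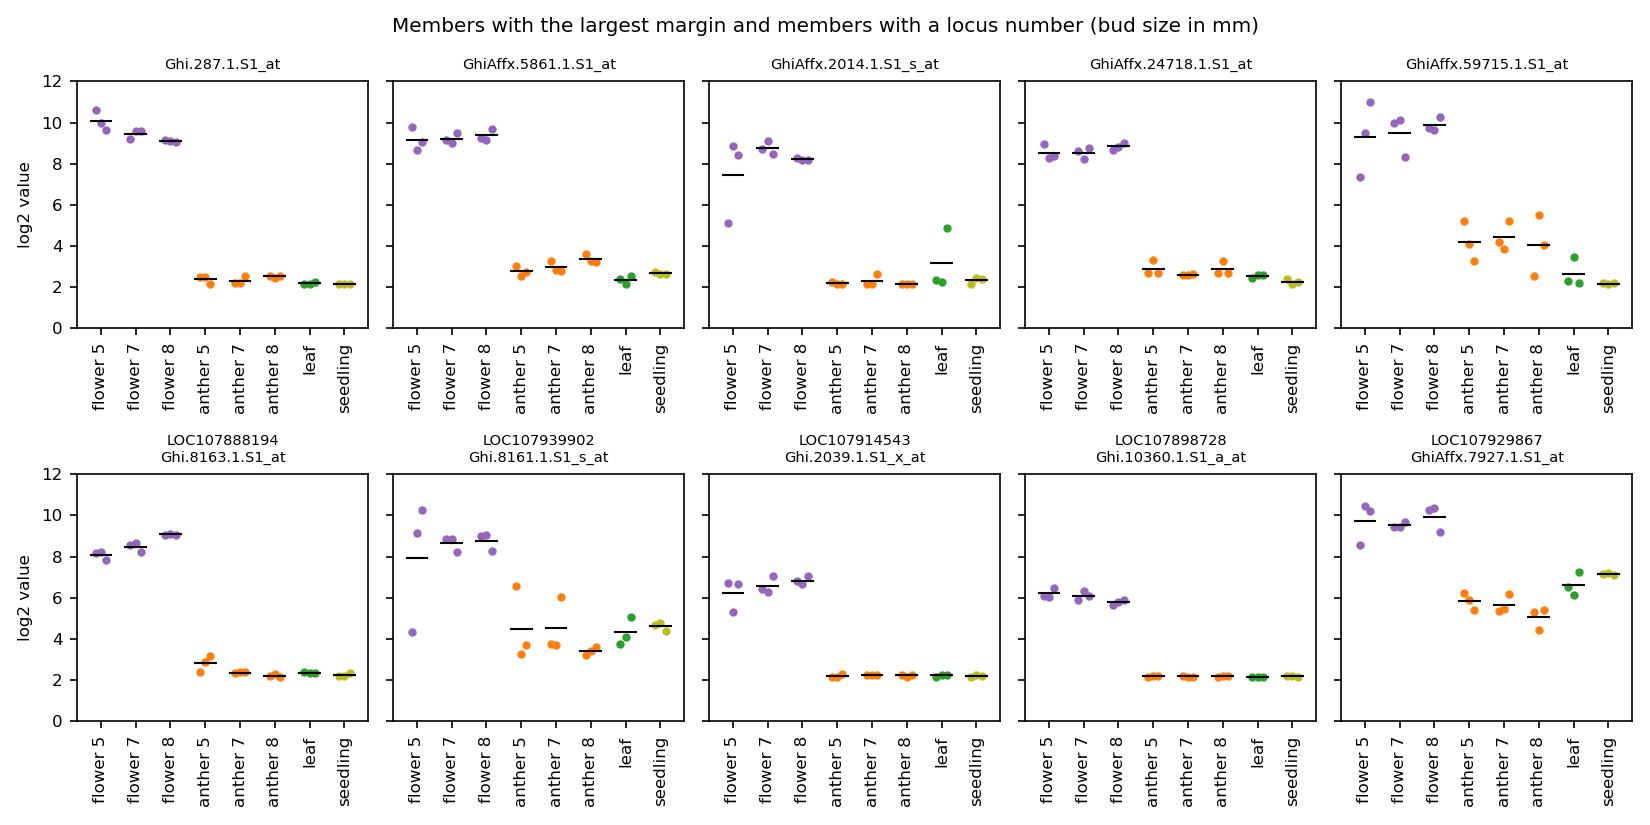
Log2 values of the 5 members with the largest margin (upper panels) and of the 5 members with a locus number (lower panels), for flower parts, anthers, leaf and seedling. Points are arrays and bars are means of 3; most flower parts points lie far above all others, while GhiAffx.2014.1.S1_s_at, GhiAffx.59715.1.S1_at and LOC107939902 each have a low point in 5 mm flower parts.

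At the edge of the margin, GraAffx.8463.1.S1_s_at (2.03) and GhiAffx.61237.1.S1_at (2.02) were just inside, and GhiAffx.31355.1.S1_s_at (1.9955) and GhiAffx.63938.1.S1_s_at (1.99) just outside. For GhiAffx.61237.1.S1_at, flower parts values were 6.66, 9.07 and 8.28 at 5 mm, 8.91, 8.73 and 9.14 at 7 mm, then 9.51, 9.40 and 8.00 at 8 mm, against 5.92 to 6.59 in anthers, 5.96 to 6.27 in leaf and 4.95 to 5.29 in seedling. At the edge of the anther range, Ghi.3732.1.S1_s_at (0.97) and GhiAffx.15854.1.S1_at (0.98) were inside. Ghi.8295.1.A1_s_at, with an anther range of 1.01 and a margin of 6.30, and Ghi.10493.1.S1_s_at, with 1.05 and 2.22, were outside. In all, 153 probe sets passed the margin and 71 of them were left out by the anther range.

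For 59 of the 82 members all 9 flower parts arrays lay above all 15 others. The same held for 1.89% of the 17666 tested probe sets, but the choice of members used this contrast. All 23 overlapping members had their lowest flower parts value on the same array, 5 mm replicate 2. Without that array, 76 members did not overlap, while leaving out 7 mm replicate 3 or 8 mm replicate 6 left the count at 59.

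The members divided almost evenly by how they read on that array. On 5 mm flower parts replicate 2, 40 members were low, by a median of 2.89 log2 units below the nearer of the other arrays with a range of 1.00 to 5.28, where 6.43% of all tested probe sets were low. A further 7 were at least 1 log2 unit above both others (2.02% of tested probe sets), and 35 were within these limits. Tested probe sets near the floor in flower parts cannot read 1 log2 unit lower, whereas members are high there by the rule. The shares of members and of tested probe sets are therefore not like for like. The rule takes the median of 3 arrays, so 1 low array does not keep a probe set out.

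The median of the 40 low members was 4.96 on replicate 2, against 8.36 on replicate 3 and 8.41 on replicate 4. The median of the other 42 was 8.17 on replicate 2, against 7.39 and 7.54 on replicates 3 and 4. The division was made on the readings of replicate 2, so these medians describe it and are not a separate result. The largest drop was that of GhiAffx.59905.1.S1_at, which read 3.07 on replicate 2 and 8.35 and 8.40 on the others. The following 4 members, named after their values were seen, were at or below background there: Ghi.3182.3.A1_at, Ghi.6885.1.A1_s_at, Ghi.6674.1.A1_s_at and Ghi.3192.3.S1_s_at. Ghi.6885.1.A1_s_at, for example, read 2.21 on replicate 2 and 6.77 and 7.69 on replicates 3 and 4, while its 7 and 8 mm flower parts arrays lay between 5.88 and 6.54.

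**Figure D2:**
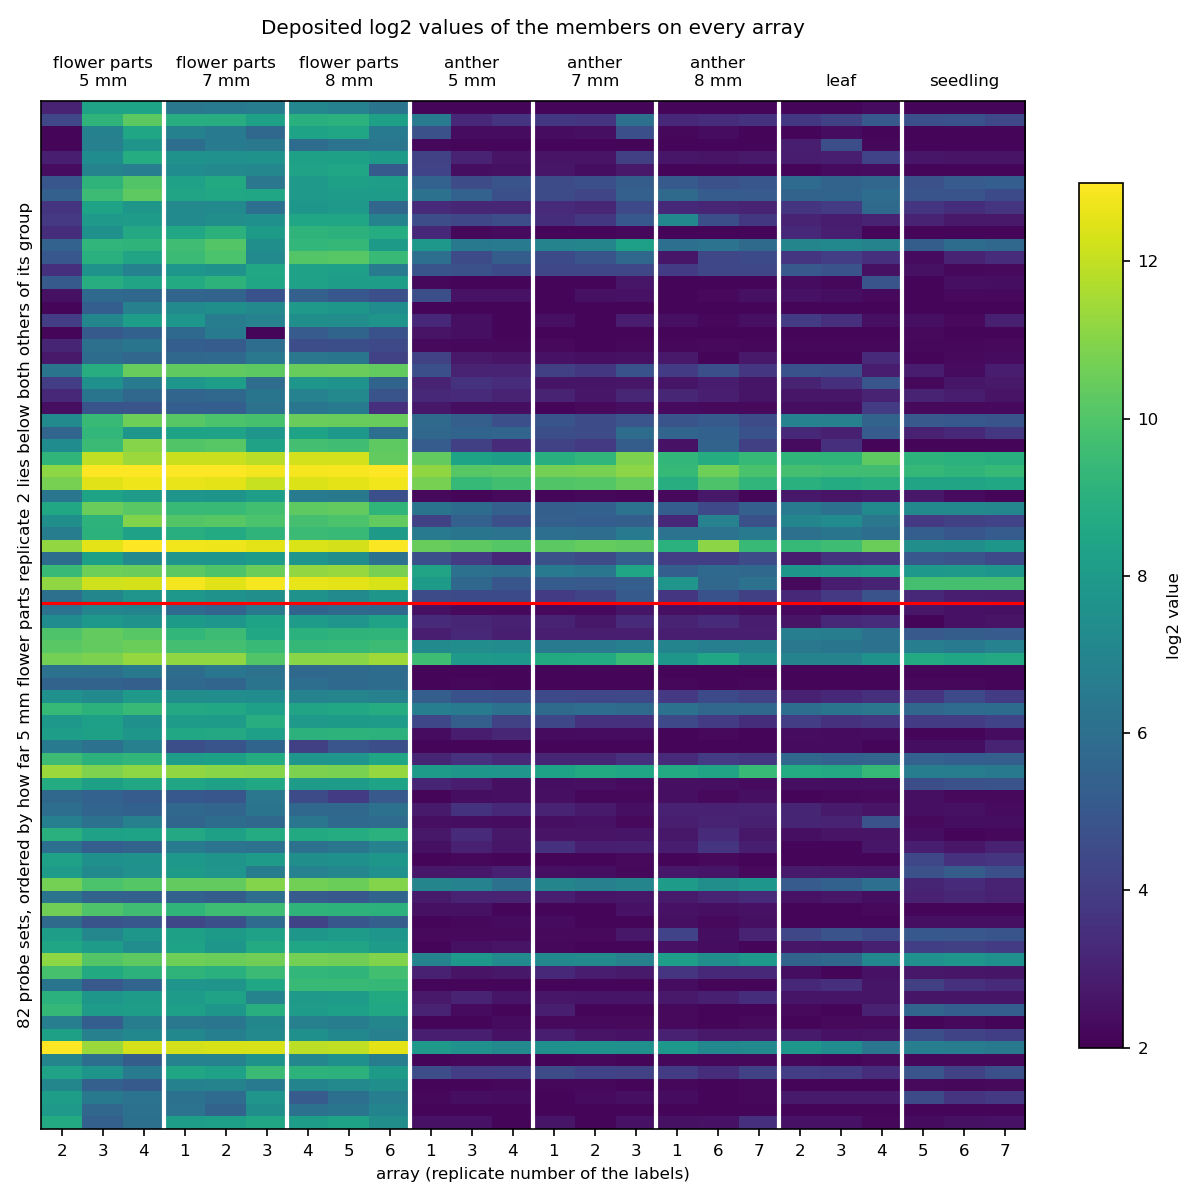
Deposited log2 values (colour, dark to bright for low to high) of the 82 members in rows on the 24 arrays in columns, flower parts left of anthers, leaf and seedling. Rows are ordered by how far 5 mm flower parts replicate 2 lies below both others of its group. The 40 rows above the red line, low by at least 1, are darker in the first column than in the other 5 mm flower parts columns.

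Some of the same members were also low on another flower parts array. On 8 mm flower parts replicate 6, 17 members were low, or 20.7% beside 3.54% of tested probe sets. The tested probe sets again include some near the floor, which cannot be low by this count. Of the 17, 16 were among the 40, which is 94.1% of the 17 and 40% of the 40. On 7 mm flower parts replicate 3, 10 members were low, or 12.2%, which is near the 9.11% of tested probe sets. Of these 10, 7 were among the 40, or 70% of the 10 and 17.5% of the 40. The 40 themselves make up 48.8% of the members. How often tested probe sets low on either of these arrays were also low on 5 mm replicate 2 was not counted. Ghi.1402.2.S1_at, Ghi.3425.2.S1_a_at and Ghi.3732.1.S1_s_at, picked after their values were seen, were low on all 3 arrays. Ghi.3732.1.S1_s_at read 5.46, 9.26 and 9.16 at 5 mm, 9.65, 10.05 and 7.48 at 7 mm, then 9.28, 9.31 and 7.97 at 8 mm.

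The same members also held most of the high readings outside flower parts. On 5 mm anther replicate 1, 13 of the 40 lay at least 1 log2 unit above both others of their group, against 1 of the 42, where 3.64% of tested probe sets did. On 7 mm anther replicate 3 the counts were 10 and 0 (1.63% of tested probe sets), and on leaf replicate 4 they were 8 and 2 (1.85%). The 40 also lay further from the floor, near which differences are compressed. Their medians were 3.79 against 2.71 for the 42 in 5 mm anthers, 3.92 against 2.50 in 7 mm anthers and 3.53 against 2.60 in leaf. Ghi.3732.1.S1_s_at read 7.85, 6.43 and 6.48 in 5 mm anthers and 6.93, 7.01 and 8.21 in 7 mm anthers. All of these values, not only the high ones, lay above its reading on 5 mm flower parts replicate 2.

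This link between low and high arrays was not particular to the members. Of the 1136 tested probe sets low on 5 mm flower parts replicate 2, 23.2% were above both others on 5 mm anther replicate 1, 12.9% on 7 mm anther replicate 3 and 9.77% on leaf replicate 4. Of the tested probe sets not low there, the shares were 2.29%, 0.859% and 1.30%, but these include probe sets near the floor, where differences are compressed. What sets these arrays apart was not tested.

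The mean of the bacterial spike-in controls also varied between flower parts arrays. It was 8.47, 9.07 and 8.96 on 5 mm replicates 2, 3 and 4, 8.46, 8.49 and 8.97 on 7 mm replicates 1, 2 and 3, then 8.59, 8.57 and 9.06 on 8 mm replicates 4, 5 and 6. Their part in the low readings was not tested.

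**Figure D3:**
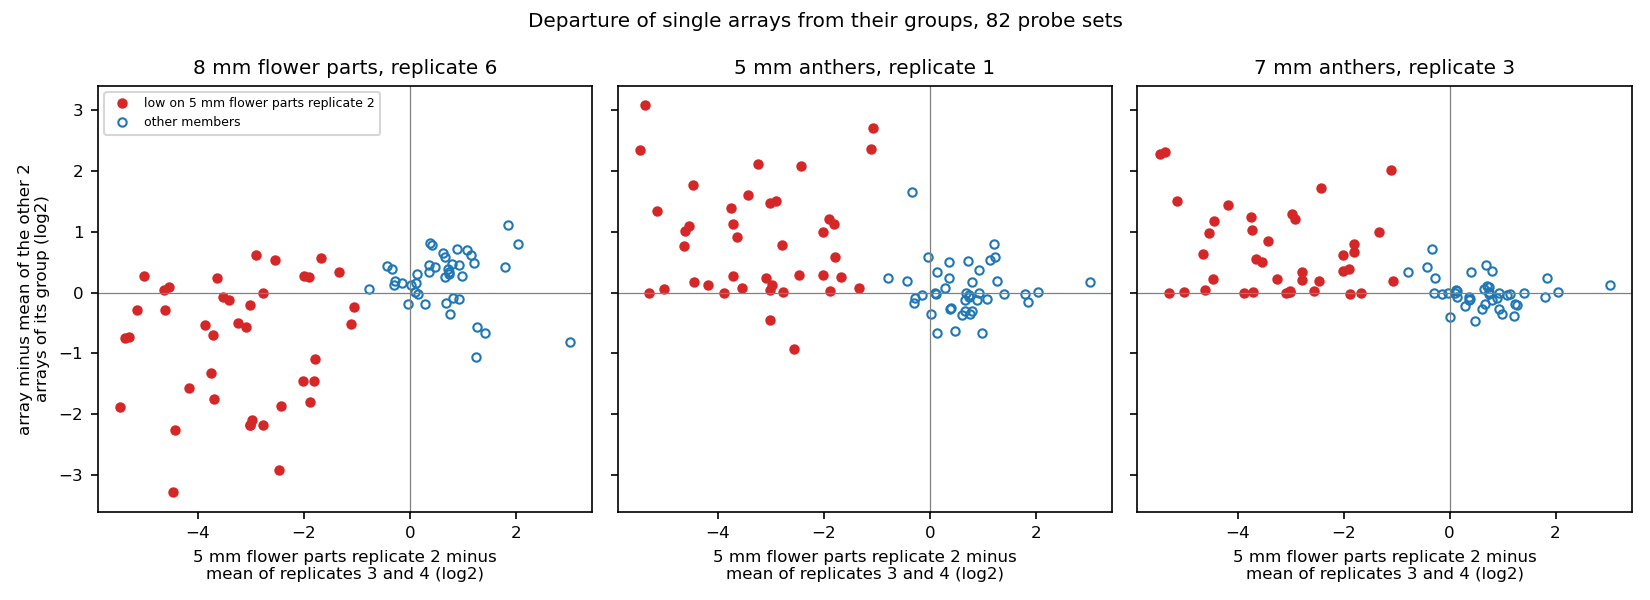
Each point is 1 member. The x axis gives 5 mm flower parts replicate 2 minus the mean of replicates 3 and 4, and the y axis gives 8 mm flower parts replicate 6, 5 mm anther replicate 1 or 7 mm anther replicate 3 minus the mean of the other arrays of its group, all in log2 units. The 40 low members (filled) reach below 0 on the y axis in the first panel and above 0 in the other panels, while the other 42 (open) mostly stay near 0.

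The low members differed from the others in which tissue came next. The highest other median was in anthers for 21 of the 40, in leaf for 14 and in seedling for 5. For the 42 it was in anthers for 23, in leaf for 5 and in seedling for 14. These counts describe the division and were not tested, since the same arrays chose the members.

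The next question was whether members changed with bud size within flower parts. The rule uses only the lowest of the 3 flower parts medians, so differences between sizes were open to a test, although a probe set that is low at any size could not become a member. Each difference was tested with limma's moderated two-sided test in 1 model of 8 group means on all 24 arrays, adjusted by Benjamini-Hochberg over 17666 probe sets. Members were called where the adjusted p was under 0.05 and the groups differed by 1 log2 unit or more. The 3 comparisons share arrays.

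Most members were not called between bud sizes. The share called was above that of all tested probe sets in each comparison, but these sets are not alike and the difference was not tested. Members are high in flower parts by the rule, whereas the tested probe sets include some at background there. The fit also takes 1 variance per probe set from all 8 groups, including those where members are low. With only the arrays of the compared groups, 0, 0 and 1 members were called. For 7 mm over 5 mm, 4 of 82 (4.88%) were called, 2 higher and 2 lower, beside 0.962% of all tested probe sets (0.730% higher and 0.232% lower). For 8 mm over 7 mm, 1 (1.22%) was called, higher, beside 0.249% (0.0736% higher and 0.175% lower). For 8 mm over 5 mm, 9 (10.98%) were called, 4 higher and 5 lower, beside 1.56% (0.906% higher and 0.651% lower). The distance between the highest and lowest flower parts medians was under 0.5 log2 units for 29 members, under 1 for 55, and 2 or more for only 3: GraAffx.8463.1.S1_s_at, Ghi.6674.1.A1_s_at and GhiAffx.61768.1.S1_at. The highest of the 3 medians was at 5 mm for 25 members, at 7 mm for 23 and at 8 mm for 34.

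GraAffx.8463.1.S1_s_at rose most. Its ID prefix marks a sequence of Gossypium raimondii, a diploid cotton, and its ending a probe set that can match several transcripts. It read 6.27, 5.08 and 5.60 at 5 mm, 7.75, 7.68 and 8.49 at 7 mm, then 9.43, 9.42 and 9.32 at 8 mm. No size overlapped with another. By limma it was higher by 2.32 (SE 0.268, adjusted p = 1.65e-04) at 7 mm than at 5 mm, by 1.42 (SE 0.268, adjusted p = 0.0249) at 8 mm than at 7 mm, and by 3.74 (adjusted p = 2.35e-07) at 8 mm than at 5 mm. The 8 mm over 7 mm call was lost without 7 mm replicate 1 (1.31, adjusted p = 0.0995), 7 mm replicate 2 (1.27, adjusted p = 0.0994), 8 mm replicate 4 (1.40, adjusted p = 0.0902) or 8 mm replicate 5 (1.40, adjusted p = 0.122), and with spike-in scaling, median centring or a replicate block. In anthers it lay between 2.16 and 2.39, in leaf between 2.64 and 3.51 and in seedling between 3.33 and 4.11.

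Ghi.6674.1.A1_s_at was also higher in larger buds, but with a wide spread at 5 mm. It read 2.16, 5.27 and 6.80 at 5 mm, 7.28, 7.49 and 7.19 at 7 mm, then 7.97, 7.83 and 7.36 at 8 mm, and 2.16 on all 15 other arrays. It was higher by 2.57 (SE 0.651, limma adjusted p = 0.0460) at 7 mm and by 2.97 (adjusted p = 0.0182) at 8 mm than at 5 mm. The variance of this fit includes the 15 other arrays, which hardly varied, whereas the SD at 5 mm was 2.36. Neither call held in a fit to the arrays of the compared groups alone. Without 5 mm replicate 2 the differences were 1.28 and 1.68. The 7 mm call was lost without 7 mm replicate 1 (adjusted p = 0.0841), 2 (0.100) or 3 (0.0573), and the 8 mm call without 8 mm replicate 4 (0.0851) or 5 (0.0821).

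LOC107888194 rose by 1.00 (SE 0.155, limma adjusted p = 0.00127) at 8 mm over 5 mm, and the arrays of these sizes did not overlap. The difference was 0.88 without 5 mm replicate 4, 0.99 without 8 mm replicate 5 and 0.93 with median centring, all under the limit of 1. Its differences of 0.39 at 7 mm over 5 mm and 0.61 at 8 mm over 7 mm were not called. GhiAffx.24712.1.A1_at, the other member called higher at 8 mm than at 5 mm, read 7.04, 5.37 and 5.11 at 5 mm, 6.85, 6.90 and 6.57 at 7 mm, then 6.98, 7.17 and 7.50 at 8 mm. Its sizes overlapped, and its difference of 1.37 (limma adjusted p = 0.0190) was not called without 5 mm replicate 3 (1.14), 5 mm replicate 4 (1.01) or 8 mm replicate 5 (1.40).

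GhiAffx.3843.1.A1_at fell most among the members whose 8 and 5 mm arrays did not overlap, although its 8 and 7 mm arrays did. It read 6.58, 6.11 and 6.80 at 5 mm, 4.64, 4.84 and 5.56 at 7 mm, then 4.10, 4.91 and 4.66 at 8 mm. Against 5 mm it fell by 1.48 at 7 mm (SE 0.229, limma adjusted p = 0.00274) and fell by 1.94 at 8 mm (adjusted p = 8.12e-05). GhiAffx.44107.1.S1_at, with 9.55, 9.07 and 9.22 at 5 mm, 8.17, 8.27 and 8.75 at 7 mm, then 7.72, 7.72 and 8.50 at 8 mm, fell by 1.30 (adjusted p = 0.00213) at 8 mm over 5 mm. These calls held without any single array, but not in a fit to the arrays of the compared groups alone.

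The remaining members that fell lay close to the limit or overlapped. GhiAffx.20670.1.S1_at read 9.95, 10.34 and 10.16 at 5 mm, 9.27, 9.53 and 8.57 at 7 mm, then 9.03, 9.14 and 9.22 at 8 mm. It fell by 1.03 at 7 mm (limma adjusted p = 0.00880) and fell by 1.02 at 8 mm (adjusted p = 0.00586), and was under 1 without 5 mm replicate 3 (-0.94 and -0.93), 7 mm replicate 3 (-0.76) or 8 mm replicate 4 (-0.98). GhiAffx.40157.1.S1_a_at fell by 1.03 at 8 mm over 5 mm (adjusted p = 0.00778), with -0.88 and -0.91 without 5 mm replicate 3 or 4 and -0.95 without 8 mm replicate 4. GhiAffx.21534.1.S1_at, with 6.32, 8.36 and 8.04 at 5 mm, 7.74, 7.71 and 8.12 at 7 mm, then 6.52, 6.43 and 4.68 at 8 mm, overlapped between 8 and 5 mm. Its difference of -1.69 (adjusted p = 0.0389) was not called without 5 mm replicate 3 (-1.30), 5 mm replicate 4 (-1.46), 8 mm replicate 5 (-1.97) or 8 mm replicate 6 (-1.10).

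**Figure D4:**
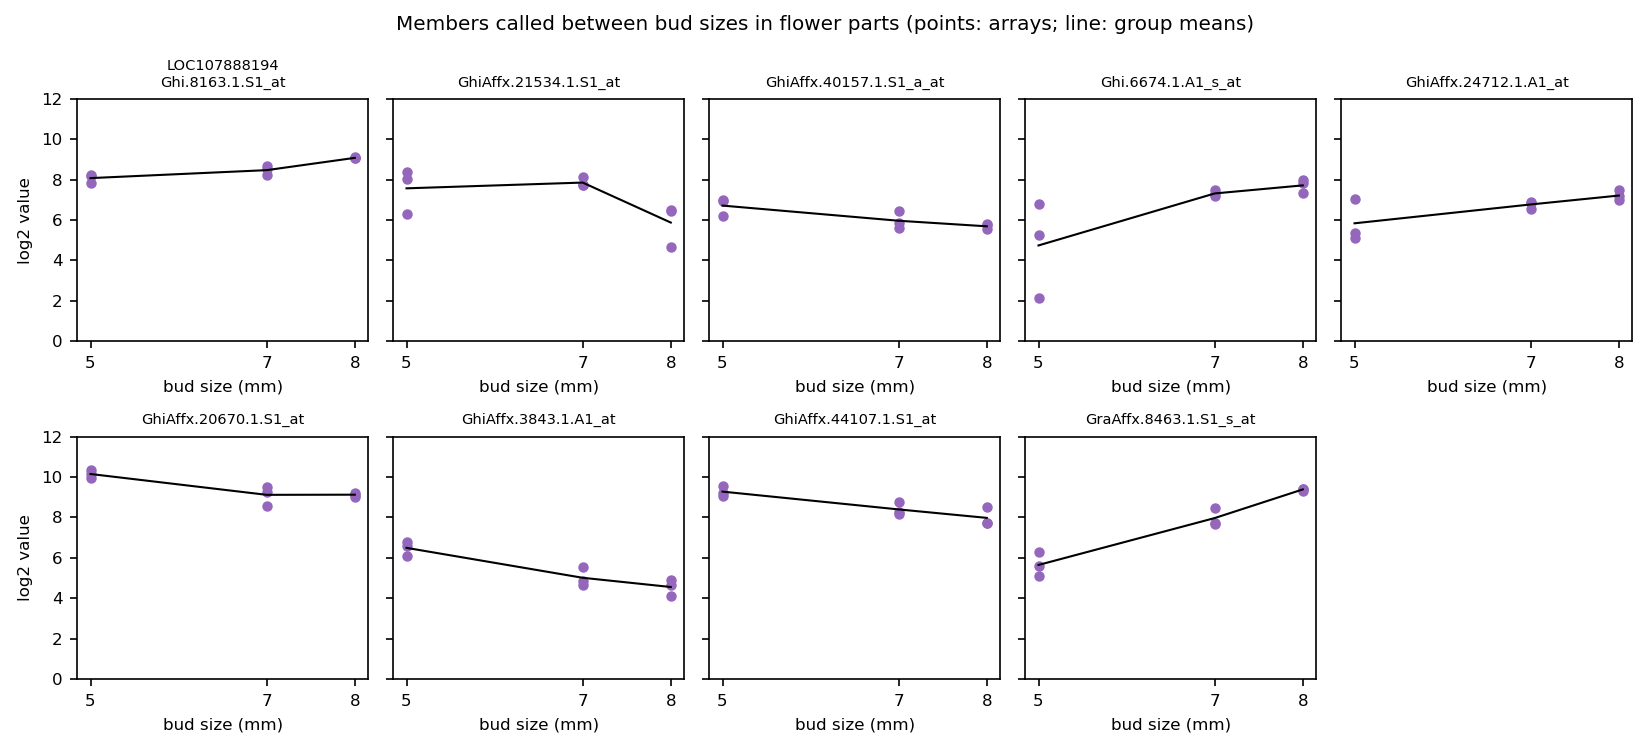
Log2 values against bud size in mm for the 9 members called between sizes of flower parts; points are arrays and lines join the means of 3. GraAffx.8463.1.S1_s_at climbs at both steps, GhiAffx.3843.1.A1_at and GhiAffx.44107.1.S1_at fall, and Ghi.6674.1.A1_s_at, GhiAffx.24712.1.A1_at and GhiAffx.21534.1.S1_at have a wide spread at 5 mm.

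Over all members, the median difference was 0.38 at 7 mm over 5 mm, -0.02 at 8 mm over 7 mm and 0.39 at 8 mm over 5 mm. The medians over all tested probe sets were -0.003, 0 and -0.003. Without 5 mm flower parts replicate 2, the member medians became 0.07 at 7 mm and -0.01 at 8 mm, both over 5 mm. Without 7 mm replicate 3 the median was 0.41 at 7 mm over 5 mm and -0.03 at 8 mm over 7 mm. Without 8 mm replicate 6 it was 0.02 at 8 mm over 7 mm and 0.44 at 8 mm over 5 mm.

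More members were called without 5 mm flower parts replicate 2. Then 10 members were called at 7 mm over 5 mm (6 higher and 4 lower) and 17 at 8 mm over 5 mm (8 higher and 9 lower), including all of the 4 and 9 called with that array. Without 7 mm replicate 3, 3 were called at 7 mm over 5 mm, with 2 of the 4 among them. Without 8 mm replicate 6, 15 were called at 8 mm over 5 mm, with 8 of the 9 among them, and without 8 mm replicate 5 only 5. Calls over all tested probe sets also moved when single arrays were left out. They lay between 149 and 403 at 7 mm over 5 mm, against 170 with all arrays. At 8 mm over 5 mm they lay between 110 and 490, against 275, so such shifts were not particular to the members. In a fit to the arrays of the compared groups alone, only GraAffx.8463.1.S1_s_at at 8 mm over 5 mm was called. At an unadjusted p under 0.05, 22, 6 and 31 members differed in the 3 comparisons. The share of all tested probe sets at this threshold was not counted, so these numbers are not read as a result about the members.

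Leaf and seedling are both low for the members by the rule, which does not use the difference between them. By limma, 17 members (20.7%) differed between these tissues, 7 higher and 10 lower in leaf. This is near the 17.4% of all tested probe sets (8.47% higher and 8.97% lower). The median difference was 0.08 over the members and 0.002 over all tested probe sets. With each array shifted by its spike-in controls, the median of all tested probe sets moved to 0.23, and 10 members were called, 6 higher and 4 lower in leaf.

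The widest difference was that of Ghi.8023.1.S1_at. It read 2.28, 2.84 and 3.06 in leaf, against 9.75, 9.77 and 9.76 in seedling, a difference of -7.03 (SE 0.570, limma adjusted p = 1.68e-08). Its flower parts values lay between 11.18 and 12.85 and its anther values between 4.93 and 8.02, so the order was flower parts, seedling, anthers and leaf, with no overlap. This probe set entered the members because its seedling median, the highest outside flower parts, was still 2.46 below its lowest flower parts median.

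GhiAffx.8173.1.S1_at and Ghi.1670.1.S1_s_at were the next most reduced in leaf. GhiAffx.8173.1.S1_at read 2.29, 2.16 and 3.02 in leaf, against 5.59, 5.31 and 5.29 in seedling, a difference of -2.91 (SE 0.343, limma adjusted p = 2.24e-06). Ghi.1670.1.S1_s_at read 2.40, 2.41 and 2.42 in leaf, against 4.64, 4.72 and 4.83 in seedling, a difference of -2.32 (adjusted p = 8.15e-10). In both the seedling level was the highest outside flower parts. GhiAffx.61073.1.S1_at, picked because no leaf array exceeded background, was at least 3.09-fold lower there than in seedling, with means of 2.19 in leaf and 3.86 in seedling (adjusted p = 1.59e-06).

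Ghi.9720.1.S1_at rose most in leaf, with 7.04, 7.29 and 6.35, against 3.80, 4.07 and 4.19 in seedling, a difference of 2.87 (SE 0.727, limma adjusted p = 0.00422). Its anther arrays spread between 3.25 and 6.88. Ghi.530.1.S1_at read 5.17, 5.40 and 6.03 in leaf, against 3.15, 3.30 and 3.09 in seedling (difference 2.35, adjusted p = 1.47e-06), but was higher still in anthers, between 6.08 and 8.08. GhiAffx.33147.1.S1_a_at read 8.75, 8.63 and 9.39 in leaf, against 6.65, 6.64 and 6.46 in seedling (difference 2.34, adjusted p = 1.50e-07), beside 7.73 to 9.42 in anthers. Leaf and seedling did not overlap in any of the 17 called members. A call itself favours groups that lie apart, and the share without overlap over all called probe sets was not counted.

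Leaving out single arrays gave between 15 and 18 called members. GhiAffx.15934.1.S1_at (1.30, limma adjusted p = 0.00302) was at 0.72 without leaf replicate 4. Ghi.1920.1.S1_s_at (1.41, adjusted p = 0.0493) and GhiAffx.26021.1.S1_at (-1.33, adjusted p = 0.0396) were close to the threshold and not called without leaf replicate 2, leaf replicate 3 or any seedling array, at 1.16 to 1.45 and -1.48 to -1.07. These 3 were named after their values were seen. GhiAffx.20670.1.S1_at was the only member called both here, higher by 1.31 in leaf (adjusted p = 2.50e-05), and between bud sizes.

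**Figure D5:**
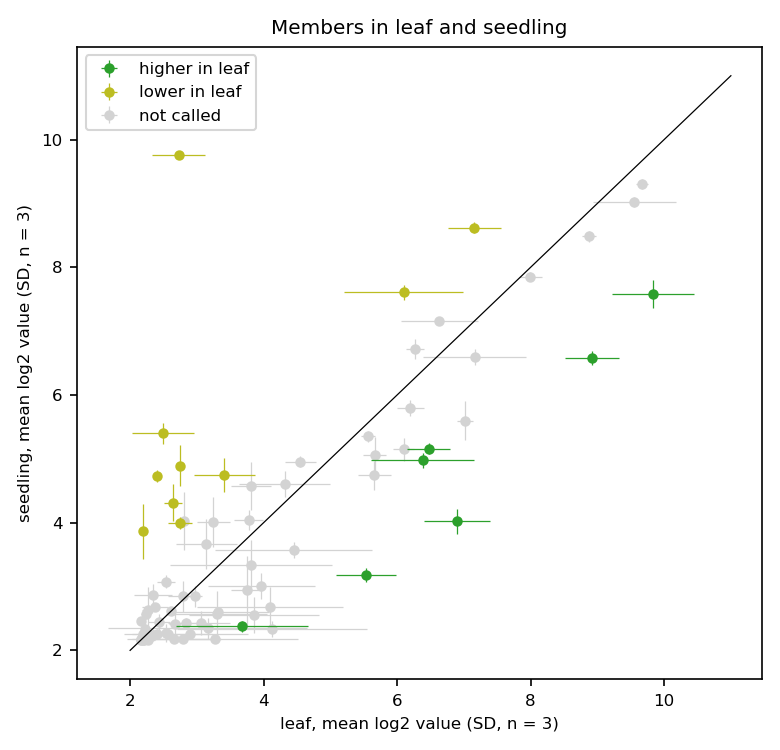
Mean log2 value of each of the 82 members in leaf (x axis) and seedling (y axis), with SD bars over 3 arrays and the line of equal values. Of the called members, 7 lie below the line (higher in leaf) and 10 above it (lower in leaf), with Ghi.8023.1.S1_at far above it at 2.73 in leaf and 9.76 in seedling.

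The members' probe sets differed in kind from the array as a whole. Probe sets that can match several transcripts, with IDs ending in s_at or x_at, made up 26.8% of members (22) against 48.0% of tested probe sets. IDs ending in a_at made up 7.32% of members (6) against 1.66%. Sequences of Gossypium hirsutum gave 96.3% of members (79) against 81.0%, and those of Gossypium raimondii 3.66% (3) against 18.4%. These shares were not tested.

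For 19 members the array held another probe set whose ID carries the same cluster number. In 2 cases both were members. GhiAffx.4924.1.S1_a_at and GhiAffx.4924.2.S1_at had margins of 4.62 and 3.37, and Ghi.9950.1.S1_s_at and Ghi.9950.2.A1_s_at had 2.49 and 2.48. Both probe sets of each pair were low on 5 mm flower parts replicate 2. GhiAffx.4924.1.S1_a_at read 3.46, 7.52 and 8.62 in 5 mm flower parts, and GhiAffx.4924.2.S1_at read 3.98, 7.07 and 8.18.

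The other 20 probe sets of these clusters were not members. Their margin was under 0.5 for 16, and 6 were below the filter on low values. Of the 20, 11 did not exceed background on over 12 of the 24 arrays, among them Ghi.287.1.A1_at, the partner of the member with the largest margin, so they give little information on the pattern. Of the other 9, the margin was at least 1 for 4 and under 0.5 for 5. GhiAffx.2014.2.S1_at was above background on every array, with a lowest flower parts median of 7.46 against a highest other median of 7.84. The same held for Ghi.2039.2.S1_s_at, with 8.38 against 8.71. By these medians, neither lay above every other tissue at every size of flower parts, unlike the members of their clusters. Both were named after their values were seen. Ghi.3182.1.S1_at (margin 2.31) and Ghi.3192.1.A1_at (2.32) passed the margin but had anther ranges of 4.15 and 2.15.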

How the data were processed

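Biotin-labelled RNA of 24 samples was measured on 1-colour Affymetrix arrays, per the labels' protocols. The authors deposited log2 values made with GCRMA, per the submitters' processing notes. No version was given. Of the values, 26.2% stood at the floor of 2.16, and differences near that floor are compressed.

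Of 24132 probe sets, 155 were controls and not tested. Background was the 95th percentile of 69 controls without target (2.23), and 17666 probe sets above it on at least 3 arrays, with all 82 members among them, were tested with limma 3.58.1 in R 4.3.3. The number of arrays limits the precision. Named were members with a single locus, the 6 largest margins, per comparison the 3 largest called changes each way without overlap, and probe sets at the thresholds. Members, lists and tests were chosen with earlier results of these data known. Gene lists and markers, searched by product name, found 0 members for want of product names. Promoter motifs were not searched. Alternatives covered the filter, lower limit, scaling, variance prior, array weights, fit, thresholds, probe set types, replicate block and single arrays. The code was tested on simulated data.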

Additional observations from a re-analysis of the deposited data

How the results depend on the processing

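The number of members was 82, and became 247 with a margin of 1, 35 with a margin of 3, 53 with an anther range under 0.5 and 153 with no limit on it. Group means gave 66 (59 shared), spike-in scaling 122 (69 shared) and quantile normalization 76. Without single arrays it lay between 61 (without 5 mm flower parts replicate 3 or 4) and 87 (without replicate 2).

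Members called at 7 over 5 mm (4), 8 over 7 mm (1) and 8 over 5 mm (9) depended on the settings. Array weights gave 7, 2 and 23, the compared groups' arrays alone 0, 0 and 1, the stricter threshold (adjusted p under 0.01, difference of 2 or more) gave 1, 0 and 1, and leaving out the 3 flower parts arrays that stood apart gave 9, 3 and 21. No minimum difference gave 7, 1 and 14, probe sets without s_at or x_at names 2, 0 and 7, median centring 4, 0 and 10, and spike-in scaling 3, 1 (a different member, lower) and 5. Without single arrays the counts lay between 3 and 10, 0 and 1, and 5 and 17. Over all tested probe sets they then lay between 149 and 403, 15 and 46, and 110 and 490. Leaf minus seedling (17) became 10 with spike-in scaling, 8 with the stricter threshold, and 15 to 18 without single arrays. Spike-in scaling left 2180 higher and 834 lower among all tested probe sets, against 1497 and 1585, and moved their median by 0.12 at 7 over 5 mm. Leaving out 1 of the flower parts arrays that stood apart, chosen after the data were seen, gave 59 to 76 members without overlap, and median member differences of 0.07 to 0.41 at 7 over 5 mm, -0.029 to 0.021 (reversed, without 8 mm replicate 6) at 8 over 7 mm and -0.011 (reversed, without 5 mm replicate 2) to 0.44 at 8 over 5 mm. The cause of these changes was not tested.

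With the replicate block, 2, 0 and 3 members were called between sizes and 12 between leaf and seedling. Among the groups compared, only 5 and 7 mm flower parts share more than 1 replicate number. Their arrays numbered 2 and 3 were compared by how far each lay from the mean of its own group. These departures had correlations of -0.16 and -0.004 over the tested probe sets, which do not show pairing in this comparison.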
